A study of Mus musculus with 24 samples.

Results

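Control vascular smooth muscle cells (VSMC) at 0 h carried 15414 H3K27ac regions away from start sites that were in no other list of the series. They were chosen from the region lists alone: a region of the control 0 h list was kept where it overlapped no region of the other 4 lists by 1 bp or more and where its midpoint lay over 3000 bp from every start site of the RNA table. They were 29.0% of the 53096 regions listed at 0 h and 40.5% of the 38025 distal ones, and the 5 lists together held 255368 regions. Their H3K27ac values are given as a description, because the same calls chose them. The RNA values were not used to choose them.

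The cells were primary VSMC from the thoracic aorta of C57BL/6J mice aged 8 to 10 weeks, used below passage 5 and grown in DMEM with 10% FBS. Control VSMC were kept with BSA (0.2%) alone, and their stated times were 0, 24 and 48 h. The 0 h cells had thus spent no time in BSA. Cholesterol-treated VSMC had BSA plus Chol:MβCD at 20 µg/mL, with stated times of 24 and 48 h. Chol:MβCD is cholesterol loaded on a cyclodextrin carrier. The carrier was not given alone, so cholesterol and carrier cannot be told apart. H3K27ac ChIP-seq had 1 library and 1 input per condition, and RNA-seq had 3 libraries per condition, or 2 in control VSMC at 48 h. The 0 h group is the common reference of all later groups. Each difference from 0 h therefore joins elapsed time with the step from growth medium to BSA, and these cannot be told apart. The study does not say whether FBS was kept during the time in BSA. The study describes the RNA libraries of a condition as biological replicates, but the sources do not say whether these were separate animals or cultures, so p-values measure only the spread between these libraries.

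H3K27ac is an acetyl mark on the tail of histone H3, placed by the coactivators CBP and EP300 and found on the nucleosomes beside active promoters and enhancers. Enhancers act over a distance on promoters that need not be the nearest, and their acetylation is gained and lost with the transcription factors that occupy them. In VSMC such factors include serum response factor with myocardin at the genes of the contractile apparatus, AP-1 (FOS and JUN proteins), the TEAD partners of YAP, and KLF4.

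The 0 h library stood apart from the others before any region was chosen. It held 16.9% of its tags in regions, against 37.4% to 43.8% in the 4 later libraries. Its 15344470 tags fell on an estimated 3452000 distinct positions, or 4.45 tags per position, against 1.19 to 1.69 in the others, where 11776000 to 20674000 positions were covered. The caller therefore asked for 6 distinct positions in a window at 0 h and for 10 to 14 elsewhere, and it discarded 141 windows at 0 h as repeats of the same positions, against 0 or 1 elsewhere. The comparison with the input removed 308 putative regions at 0 h, against 3425 to 4302 elsewhere. Divided by distinct positions in units of 1000000, the 0 h threshold was the highest of the 5, at 1.74, with 0.677 to 0.849 in the others. Of the promoter regions at 0 h, 12.4% were in no other list, against 3.56% to 4.59% in the later lists. With 1 library per condition, time, the step to BSA and library cannot be told apart. The part of these library differences in the region choice was not tested.

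**Figure D1:**
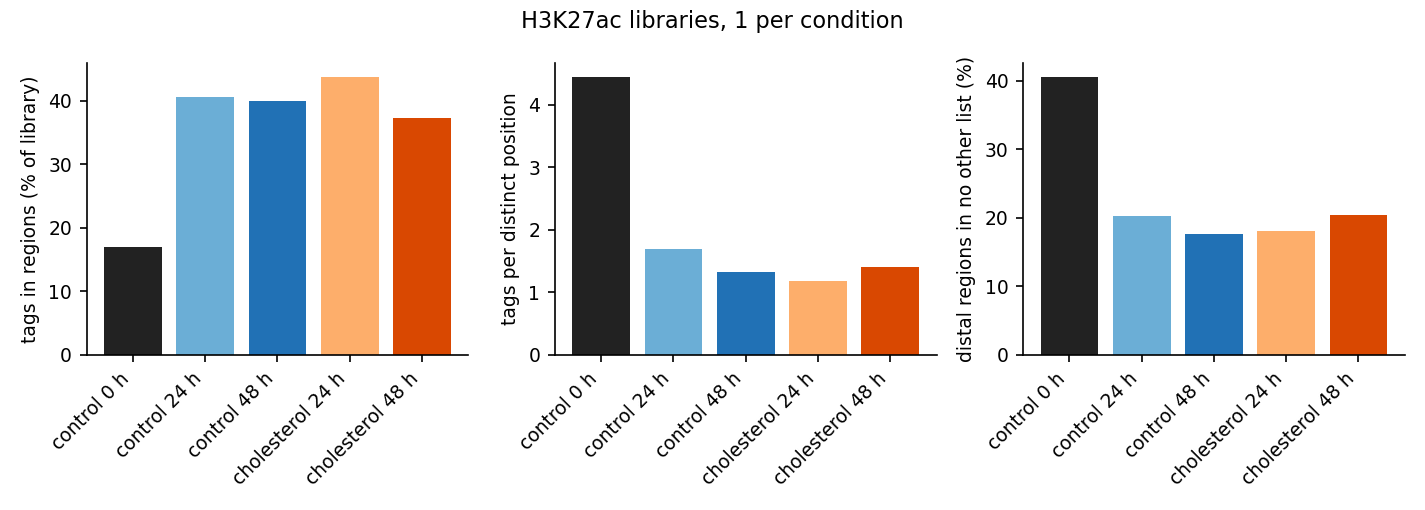
Bars show, for the 1 H3K27ac library of each condition, the share of tags in regions, the tags per distinct position and the share of distal regions that are in no other list. The control 0 h library has the lowest share of tags in regions (16.9%), the most tags per position (4.45) and the highest share of regions in no other list (40.5%).

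The central 200 bases of 4 of the 10 regions with the most tags are shown, because they differ widely in base composition, from 27.5% to 64.0% GC (27.5% to 71.5% over the 10). They are from GRCm38.p6 (mm10), on the + strand, 5′ to 3′, and capitals mark a match to TEAD (GGAATG) or KLF (GGGNGTGG) letters on either strand.
Region nearest Olfr1368, chr13:21160017-21160216, outside genes in a region that overlaps a tRNA gene, 49.0% GC, no match: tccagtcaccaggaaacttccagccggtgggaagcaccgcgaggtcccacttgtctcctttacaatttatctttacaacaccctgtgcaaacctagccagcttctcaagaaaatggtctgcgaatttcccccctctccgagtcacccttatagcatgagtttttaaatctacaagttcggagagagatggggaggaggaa
Region nearest Tbx4, chr11:85926187-85926386, outside genes, 43.0% GC, TEAD match: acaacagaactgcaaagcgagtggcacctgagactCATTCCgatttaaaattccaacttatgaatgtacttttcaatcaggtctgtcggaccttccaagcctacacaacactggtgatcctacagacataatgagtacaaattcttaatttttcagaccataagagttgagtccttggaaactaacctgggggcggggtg
Region nearest Mir6417, chr5:52115149-52115348, in an intron of Ppargc1a, 64.0% GC, KLF match: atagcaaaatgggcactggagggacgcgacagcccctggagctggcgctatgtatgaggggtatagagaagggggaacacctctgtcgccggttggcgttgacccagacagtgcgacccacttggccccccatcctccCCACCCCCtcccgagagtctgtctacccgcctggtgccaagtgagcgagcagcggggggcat
Region nearest 1700023F02Rik, chr10:65846006-65846205, outside genes, 27.5% GC, no match: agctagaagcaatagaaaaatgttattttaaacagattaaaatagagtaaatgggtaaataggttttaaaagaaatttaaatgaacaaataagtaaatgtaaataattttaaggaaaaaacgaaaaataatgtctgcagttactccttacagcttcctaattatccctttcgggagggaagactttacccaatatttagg

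Most of the distal regions only at 0 h were small and close to the limit of the call. Their median length was 500 bp, the shortest that the caller writes, and 87.0% had that length. Their score, a value that the caller gives each region, had a median of 6, and 63.8% were at 6 exactly, the lowest score of the list. That lowest score equals the caller's threshold for a window at 0 h. It is not a count over a whole region. The region with the most tags had 199 tags over 3202 bp at a score of 6. Some regions of 500 bp only in cholesterol-treated VSMC at 24 h had fewer tags than their score. A count of 6, as in the threshold, has an exact Poisson 95% interval of 2.20 to 13.1. It covers counting error only and is not the precision of a region. A score of 10 or more was reached by 273 regions (1.77%). Normalized tags, scaled to 10000000 per library and with repeats at a position included, had a median of 18.2 (quartiles 15 and 22.2) and a maximum of 129.7.

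Input tags were few in these regions. Their median was 1 tag, not scaled, and 39.0% had no input tag and were listed at 0.5. The fold over input, which divides tags scaled to the input's depth by input tags with that floor, had a median of 19.6 (quartiles 7.63 and 47.0), and 8.62% were under 5. Distal regions at 0 h that overlapped all 4 other lists (10428) had more normalized tags (median 30.6) and more input tags (median 4), but a lower fold (median 12.9). Regions in only 1 of the later lists had a median fold of 5.17 to 5.71 with a median of 3 input tags, and 1.10% to 3.24% of them had none. The tags in the numerator of the fold include repeats at a position. Tags divided by the score had a median of 4.17 in the regions of 500 bp only at 0 h. In those of the later lists the medians were 1.13 to 1.64.

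**Figure D2:**
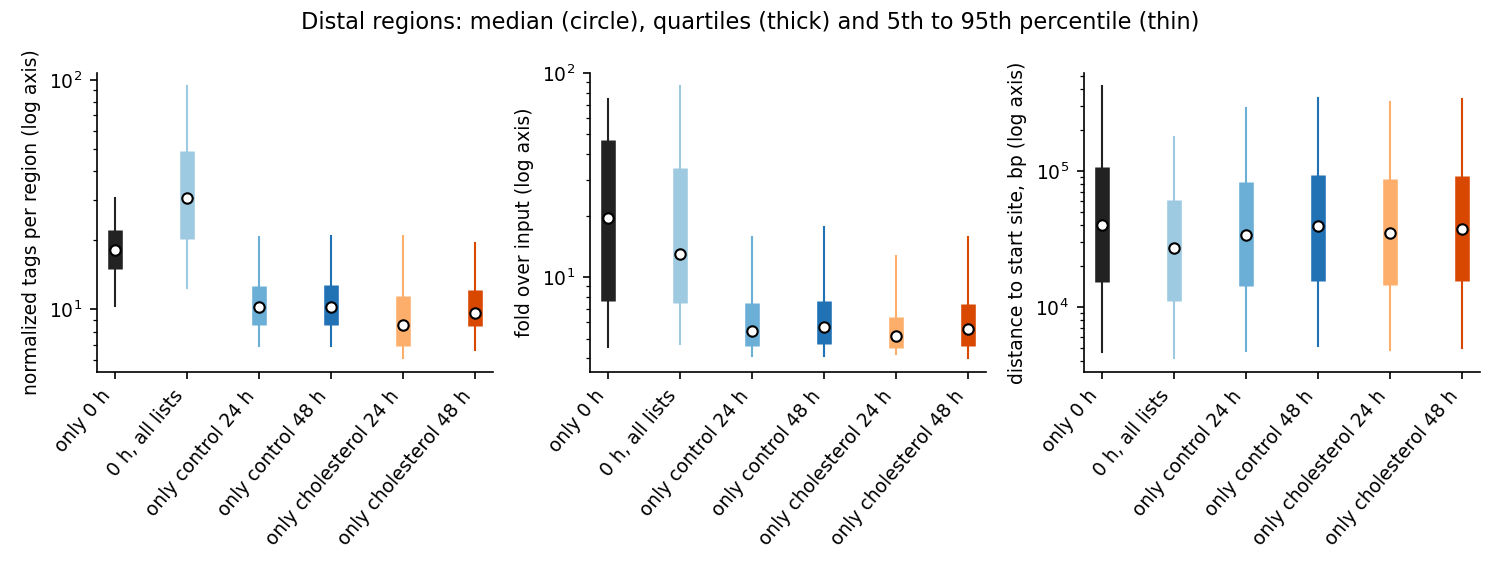
Normalized tags, fold over input and distance to the nearest start site of distal regions, for the regions only at 0 h, the 0 h regions found in all lists and the regions in only 1 later list. Circles are medians, thick bars quartiles and thin lines the 5th to 95th percentiles. Regions only at 0 h had a median of 18.2 normalized tags, below the 30.6 of 0 h regions found in all lists.

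The share of distal 0 h regions that were in no other list fell with the score. It was 51.9% of 18942 regions at score 6, 38.9% at 7, 28.3% at 8, 20.0% at 9 and 9.63% at 10 to 14, and 1 of 158 regions (0.633%) at 15 and over. Regions found in all 5 lists took the opposite course, from 18.3% at score 6 to 82.9% at 15 and over. By length, the regions only at 0 h were 53.6% of those of 500 bp, 22.6% of those over 500 and up to 1000 bp, 5.23% of those over 1000 and up to 2000 bp and 1.00% of those over 2000 bp. A longer region has more room to overlap another list, so length and the rule of choice are linked.

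**Figure D3:**
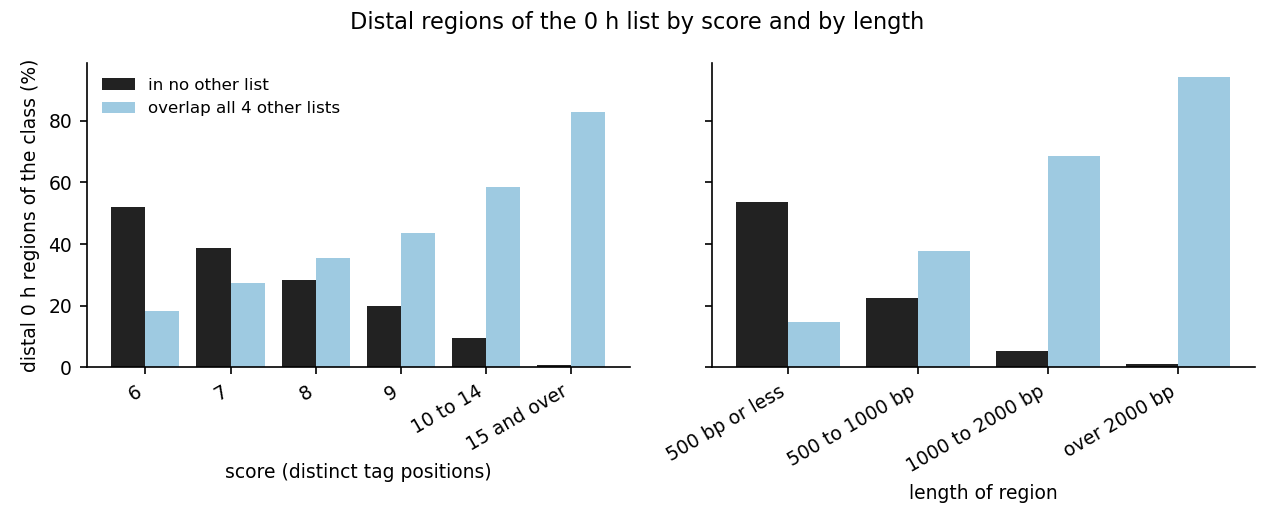
Shares of the distal 0 h regions of each score class and each length class that are in no other list (black) and that overlap all 4 other lists (blue). The black bars go from 51.9% at score 6 to 0.633% at 15 and over, and from 53.6% at 500 bp to 1.00% over 2000 bp.

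Many of these regions had a neighbour in another list. The median gap to the closest region of the other lists was 5722 bp, 19.3% were within 1000 bp and 47.0% within 5000 bp of such a region, and 23.4% were over 20000 bp away from all. Regions in only 1 of the later lists were closer to the other lists, with median gaps of 1597 to 2130 bp and 8.48% to 10.8% over 20000 bp away. At the limits of the rule the ranges of normalized tags overlapped. The 5 regions that the start site limit just let in had midpoints 3005 to 3012 bp away and 16.3 to 33.2 normalized tags, and the 5 that it just left out lay 2981 to 2999 bp away with 12.4 to 27.4. The 5 regions that lay 1 bp from another list had 13.7 to 28.7 normalized tags, and 5 that overlapped another list by 1 bp had 11.7 to 46.9.

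The regions were spread over the genome. Their median distance to a start site was 39981 bp, compared with 27177 bp for the 0 h regions in all lists and 34205 to 39607 bp for regions in only 1 later list. A midpoint in an intron or other part of a gene outside exons was found for 58.9%, in an exon for 3.10% and outside RefSeq genes for 38.0%. Of the distal 0 h regions of a chromosome, those in no other list made up between 33.8% (chromosome 7) and 52.5% (chromosome X, 218 of 415), with 47.5% on chromosome 14. The median distance to the next region of the same kind was 37320 bp, and 19.2% had one within 10000 bp.

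Their central 200 bases were poorer in G and C than those of the 0 h regions in all lists, with a median of 43.0% against 47.5%. Regions in only 1 later list were like them in this respect (43.0% to 44.0%). Over 50% of the central bases were repeats in 14.4% of the regions only at 0 h, against 7.66% of the 0 h regions in all lists and 11.9% to 13.7% of regions in only 1 later list. The letters TGANTCA of AP-1 sites were present on either strand in 8.12%, against 10.8% of the 0 h regions in all lists, 8.80% to 12.7% of regions in only 1 later list and 13.6% of all 190711 distal regions of the 5 lists. GGAATG, the letters bound by TEAD factors, was present in 12.4%, against 14.998% and 16.2%. GGGNGTGG, a KLF site, was present in 5.15%, against 8.43% and 6.92%, with 5.38% to 5.61% of regions in only 1 later list. A CArG box, the site of serum response factor, was present in 1.03%, against 1.47% and 1.60%, with 1.11% to 1.48% of regions in only 1 later list. A MEF2 box was present in 4.35%, against 3.17% and 4.05%, with 4.14% to 5.07% of regions in only 1 later list. The AP-1 and TEAD letters do not contain each other, and TEAD letters were present in 12.8% to 14.3% of regions in only 1 later list. The lower share of AP-1 letters was found at each score, from 6.77% at score 8 to 9.22% at score 9, with 10.1% to 11.7% in the 0 h regions in all lists. These are shares within single libraries, the sets differ in base composition and repeats as given above, and no test was made.

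Of the 10 regions with the most tags, those nearest Trim27, Tshz1, Pex26 and Erc1 had a nearest gene with RNA above the filter, and the other 6 did not. The one with the most tags (chr13:21158515-21161717, 129.7 normalized tags, score 6) lay 17061 bp from Olfr1368, an olfactory receptor gene listed at 0 in every library. The region nearest Trim27 (chr13:21166636-21169140, 85.4 normalized tags) lay 12043 bp from that gene, a ubiquitin ligase gene. Both overlapped tRNA genes. The region nearest Elovl3 (chr19:46135052-46137308, 96.5 normalized tags) was in an exon of Pitx3, a homeobox gene of dopamine neurons, and 4281 bp from the start of Elovl3, a fatty acid elongase gene. Its central bases were 71.5% GC. Pitx3 was listed at 0 in all libraries at 0 h. Elovl3 was at 0.107, 0 and 0.0368 RPKM at 0 h. The region nearest Tbx4, a limb and lung T-box gene, had the highest score of the 10 (chr11:85925064-85927508, 76.2 normalized tags, score 11, 2 input tags, fold 57.2) and lay 79970 bp from any region of another list. Tbx4 was at 0, 0 and 0.00678 RPKM at 0 h and at 0 to 0.0525 later.

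The other 6 of the 10 had 65.8 to 72.3 normalized tags. That nearest Mir6417 was in an intron of Ppargc1a, the coactivator PGC-1α, which was at 0, 0 and 0.000969 RPKM at 0 h. Mir6417 and 1700023F02Rik were listed at 0 in every library, and Slc35g2 was at 0.0431, 0.0223 and 0.00775 RPKM at 0 h. In the sentences that follow, RPKM is scaled between libraries, and log2 differences are those of log2(RPKM + 1), which understate the change of low genes, with adjusted p from limma over all 12648 genes tested. In bulk RNA, fewer cells of a kind and less RNA per cell cannot be told apart. Tshz1, a zinc finger gene with 8 of these regions, was at 0.926, 1.11 and 1.14 RPKM at 0 h and at 1.40, 1.60 and 1.48 in cholesterol-treated VSMC at 48 h, a log2 difference of 0.28 ± 0.05 (SE; limma adjusted p = 0.00072). Erc1, a scaffold protein gene, was at 0.852, 0.850 and 0.849 RPKM at 0 h and at 0.406, 0.623 and 0.542 in cholesterol-treated VSMC at 48 h (log2 difference −0.28 ± 0.04, limma adjusted p = 0.00033). Pex26, a peroxisome gene, was at 2.20 to 2.65 RPKM at 0 h and passed the test in no later group. Trim27 was at 4.36, 4.40 and 5.03 RPKM at 0 h and was higher in control VSMC at 48 h (5.75 and 5.94, log2 difference 0.29 ± 0.07, limma adjusted p = 0.02), a call that was lost without control 0 h replicate 2 (0.27) or without either 48 h library (0.31 and 0.27).

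The nearest gene is the one whose start site was closest, with no evidence that the region acts on it. A nearest gene was found for all regions but 1, giving 7740 genes. Of these, 4355 had 1 region, 2816 had 2 to 4, 506 had 5 to 9 and 63 had 10 or more. The filter on low values was passed by 4755 of them (61.4%, with 51.7% of all 24453 named genes), 2011 had some RNA but were not tested and 974 were listed at 0 in all libraries. An RPKM of at least 1 was reached by 34.4% to 36.2% of the 7740 in each 0 h library, with 33.9% to 35.7% of all genes. Among genes tested, the nearest genes had longer gene bodies (median 41.1 kb against 21.5 kb) and lower levels at 0 h (median 1.26 against 1.87 RPKM) than all genes tested. The RPKM here is per kilobase of whole gene body, which includes introns.

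The RNA of the nearest genes was lower or higher at later times in about the proportions of all genes. In control VSMC at 24 h, 189 of 4755 nearest genes were lower than at 0 h (3.98%) and 219 were higher (4.61%), with 3.81% and 4.45% of all 12648 genes tested. With RPKM as deposited the split was 115 lower (2.42%) and 306 higher (6.44%), with 2.51% and 6.03% of all genes. At 48 h in control VSMC the nearest genes were lower in 420 (8.83%) and higher in 395 (8.31%), with 8.06% and 7.66% of all genes. In cholesterol-treated VSMC at 24 h, 558 were lower (11.7%) and 408 higher (8.58%), with 10.9% and 9.13% of all genes. With RPKM as deposited, not scaled between libraries, this split turned round, to 327 lower (6.88%) and 676 higher (14.2%) at that time, with 6.29% and 14.6% of all genes. In cholesterol-treated VSMC at 48 h, 949 were lower (20.0%) and 712 higher (14.97%), with 17.5% and 16.3% of all genes. The median log2 difference of the nearest genes was between −0.01 and 0.00 in all 4 comparisons, as was that of all genes.

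The 4 comparisons share the same 3 libraries at 0 h, and these differed among themselves. Summed RPKM of the list of contractile genes was 580.8, 416.7 and 341.3 in control 0 h replicates 1, 2 and 3, against 331.5 to 350.5 in control VSMC at 24 h. The library with the highest of these sums was kept here, but the study left it out of an expression comparison because it did not cluster with its condition. Without control 0 h replicate 3, 503 nearest genes were lower in control VSMC at 24 h and 362 higher, or 10.6% and 7.63%, with 11.8% and 7.64% of all genes. Without replicate 1 they were 108 and 126 there, 427 and 480 in control VSMC at 48 h, and 362 and 239 at 24 h and 907 and 728 at 48 h in cholesterol-treated VSMC. In control VSMC at 24 h, without replicate 2 they were 96 and 130 (2.02% and 2.73%), with 1.86% and 2.77% of all genes. With all genes the shares without replicate 1 were 2.25% and 2.57% there, and those of the nearest genes were 2.27% and 2.65%. In control VSMC at 48 h they were 8.34% and 9.56% of all genes without replicate 1. In cholesterol-treated VSMC they were 6.72% and 5.45% at 24 h and 16.9% and 16.9% at 48 h.

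Nearest genes of the 0 h regions in all lists (3456 tested) were lower in 5.41%, 10.9%, 15.6% and 22.3% of cases in control VSMC at 24 and 48 h and in cholesterol-treated VSMC at 24 and 48 h. Genes nearest to no distal 0 h region (6502) were lower in 3.25%, 6.81%, 9.27% and 14.9%. Of all genes 3.81%, 8.06%, 10.9% and 17.5% were lower. Many genes are nearest to both kinds of region. The 2690 tested genes nearest to regions only at 0 h and to none found in all lists were lower in 3.12%, 7.44%, 8.96% and 17.5% of cases, which at 24 h is below the genes nearest to no distal 0 h region in control and in cholesterol-treated VSMC. In the same order of groups, 5.47%, 8.62%, 8.77% and 14.8% of nearest genes of 0 h regions in all lists were higher. Genes nearest to no distal 0 h region were higher in 4.12%, 7.12%, 9.60% and 17.4%. The 2690 genes were higher in 3.94%, 7.73%, 8.48% and 15.7%, with 4.45%, 7.66%, 9.13% and 16.3% of all genes. The sets of genes differ in length and level, and the differences between them were not tested. Nearest genes of the 273 regions with a score of at least 10 (174 tested) were lower in 5.75% and 8.62% and higher in 8.05% and 11.5% of cases in control VSMC at 24 and 48 h. These are small numbers, 10 and 15 genes lower and 14 and 20 higher. Of all genes 3.81% and 8.06% were lower and 4.45% and 7.66% higher.

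**Figure D4:**
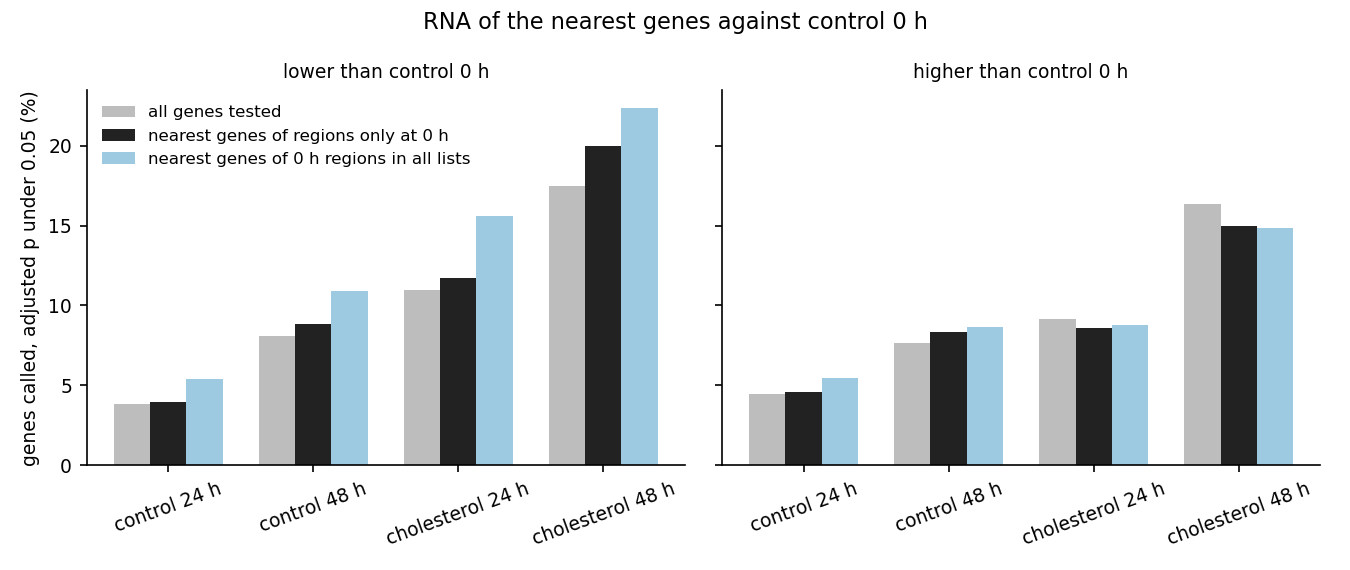
Percent of genes called lower (left) or higher (right) than control 0 h with limma at an adjusted p under 0.05, for all 12648 genes tested (grey), the 4755 nearest genes of regions only at 0 h (black) and the 3456 nearest genes of 0 h regions in all lists (blue). The black and grey bars are closest in control VSMC at 24 h (3.98% and 3.81% lower) and farthest apart in cholesterol-treated VSMC at 48 h (20.0% and 17.5% lower).

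The 10 genes with the most of these regions had 14 to 27 each. Efna5, an ephrin ligand of neural and vascular guidance, had 27 regions and 5 that were found in all lists. It was at 0.561, 0.476 and 0.553 RPKM at 0 h and at 0.645 and 0.677 in control VSMC at 48 h (log2 difference 0.12 ± 0.03, limma adjusted p = 0.023, lost without control 0 h replicate 2 at 0.09 or without either 48 h library at 0.13 and 0.11). Celf2, a splicing regulator, had 21 regions and was at 2.48, 2.23 and 2.15 RPKM at 0 h, against 1.89, 1.89 and 2.12 in cholesterol-treated VSMC at 48 h (log2 difference −0.15 ± 0.05, limma adjusted p = 0.033), a call lost without control 0 h replicate 1 (−0.11) or 2 (−0.16) or cholesterol 48 h replicate 1 or 2 (−0.13 in each case). The guidance receptor gene Robo1 had 16 regions and none found in all lists.

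The others of the 10 were Gpc6 and Nfia with 17 regions each, 1700019E08Rik with 17, Foxp1 and Klf12 with 16 each, and Nlgn1 and Zfp608 with 14 each. Gpc6 encodes a glypican, Nfia, Foxp1 and Klf12 transcription factors, and Nlgn1 a synaptic adhesion protein. Foxp1 had 24 further regions that were found in all lists, the most of the 10, and was at 3.37, 3.12 and 2.91 RPKM at 0 h. Nlgn1 was at 0.00332 RPKM or less at 0 h, and 1700019E08Rik was listed at 0 throughout. Of these 10 genes, Efna5 alone passed the test in a control group, and Celf2, Efna5, Klf12, Robo1 and Zfp608 passed it in cholesterol-treated VSMC at 48 h, Efna5 upward and the others downward. The calls of Klf12, Robo1 and Zfp608 were lost without control 0 h replicate 3 (−0.04, −0.06 and −0.05). Those of Klf12 and Zfp608 were also lost without cholesterol 48 h replicate 1 (−0.03 and −0.05), and that of Klf12 without control 0 h replicate 2 (−0.04). Genes with 5 to 9 regions (356 tested) were lower in 26.97% of cases in cholesterol-treated VSMC at 48 h and genes with 10 or more (51 tested) in 41.2%, with 17.5% of all genes. In control VSMC at 48 h these shares were 11.8% and 1.96%, with 8.06% of all genes. Median gene body lengths in these classes were 102.0 and 139.9 kb.

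Among nearest genes within 100 kb of a region and with a mean RPKM of at least 1, the 8 largest falls in control VSMC at 24 h were those of Cyp26b1, Edn1, Mgp, Npnt, Xirp1, Igfbp4, Pgam2 and Gadd45g. Cyp26b1, which breaks down retinoic acid, had 7 of these regions, the closest 44583 bp from its start site (chr6:84638241-84638741, 15.6 normalized tags). It was at 24.9, 21.2 and 18.4 RPKM at 0 h, 11.2, 10.4 and 9.56 in control VSMC at 24 h and 7.96 and 7.61 at 48 h. Cholesterol-treated VSMC had 11.3, 11.8 and 11.2 at 24 h and 7.54, 9.34 and 9.25 at 48 h. Each later library was below each 0 h library. The log2 difference of log2(RPKM + 1) was −0.98 ± 0.10 at 24 h and −1.35 ± 0.11 at 48 h in control VSMC (limma adjusted p = 0.00016 and 1.3e-05).

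Npnt, a matrix ligand of integrins, had 1 region at 18705 bp (chr3:132968746-132969246, 20.2 normalized tags). Its RPKM was 7.78, 6.59 and 5.66 at 0 h, 3.60, 3.65 and 3.45 in control VSMC at 24 h and 2.55 and 2.91 at 48 h, with 2.28 to 3.55 in cholesterol-treated VSMC. The control differences were −0.74 ± 0.08 and −1.03 ± 0.09 on the log2 scale (limma adjusted p = 0.00018 and 1.3e-05), and no later library reached the 0 h range. Edn1, the vasoconstrictor endothelin, had 2 regions, at 44060 and 53052 bp (33.2 and 19.6 normalized tags). It was at 8.75, 9.66 and 9.46 RPKM at 0 h, 4.72, 4.82 and 4.30 at 24 h and 4.39 and 4.59 at 48 h in control VSMC. Cholesterol-treated VSMC at 48 h had 3.48, 2.69 and 2.55. Its log2 difference was −0.87 ± 0.08 in control VSMC at 24 h and −1.40 ± 0.08 in cholesterol-treated VSMC at 48 h (limma adjusted p = 5.8e-05 and 1.5e-07).

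Igfbp4, which binds insulin-like growth factors, had 1 region at 3674 bp (chr11:99037336-99037836, 16.3 normalized tags). It was at 6.16, 6.17 and 5.67 RPKM at 0 h, 3.23, 3.76 and 3.41 at 24 h and 2.61 and 2.54 at 48 h in control VSMC. In cholesterol-treated VSMC it was at 5.25, 6.02 and 5.57 at 24 h and 6.64, 4.75 and 5.30 at 48 h, where the libraries overlapped those at 0 h and the test was not passed (limma adjusted p = 0.53 and 0.41). In control VSMC the log2 differences were −0.65 ± 0.09 and −0.97 ± 0.10 (limma adjusted p = 0.00095 and 5.3e-05). Mgp, the matrix Gla protein that inhibits calcification, fell by 0.83 ± 0.16 on the log2 scale in control VSMC at 24 h, from 40.3, 28.8 and 22.5 RPKM to 15.5, 16.2 and 17.3 (limma adjusted p = 0.0096). Xirp1, an actin-binding protein of striated muscle, fell by 0.70 ± 0.11 and Pgam2, a muscle enzyme of glycolysis, by 0.64 ± 0.13 at 24 h (limma adjusted p = 0.0029 and 0.013). Gadd45g, a stress-response gene, fell by 0.62 ± 0.14 (limma adjusted p = 0.018), a call lost without control 0 h replicate 1 (−0.50) or 2 (−0.63) or without any of the 24 h libraries (−0.63, −0.60 and −0.63).

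At 48 h in control VSMC the 8 largest falls were of Cyp26b1, Coro6, Cldn3, Mir704, Npnt, Rps27rt, Rasl11b and Igfbp4. Coro6, an actin-binding coronin with 3 regions, was at 5.66, 6.22 and 7.21 RPKM at 0 h and 2.66 and 1.89 at 48 h (log2 difference −1.18 ± 0.17, limma adjusted p = 0.00056). Rasl11b, a small GTPase gene with 2 regions, was at 7.13, 7.82 and 7.34 RPKM at 0 h and 3.02 and 3.45 at 48 h in control VSMC, but at 9.22, 9.71 and 9.85 in cholesterol-treated VSMC at 48 h. Its log2 difference was −0.99 ± 0.08 in the first and 0.33 ± 0.07 in the second (limma adjusted p = 7.4e-06 and 0.003). Cldn3, a claudin of tight junctions, was at 4.50 to 6.48 RPKM at 0 h and 2.64 and 1.71 at 48 h (log2 difference −1.10 ± 0.29, limma adjusted p = 0.026), a call lost without control 0 h replicate 2 (−1.03) or 3 (−1.02) or either 48 h library (−1.31 and −0.89). The values of Mir704, whose body in the table is shorter than a sequenced fragment, and of Rps27rt, a near copy of a ribosomal protein gene, are uncertain.

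By the same rule, the 8 largest rises in control VSMC at 24 h were those of Cxcl1, Nfkbia, Prelp, Fst, Zc3h12a, Arc, Camk2n1 and Podn. Nfkbia, the inhibitor of NF-κB, had 1 region at 43206 bp and 5 found in all lists. It was at 11.0, 9.76 and 11.4 RPKM at 0 h, 21.2, 20.3 and 20.4 at 24 h and 23.7 and 23.2 at 48 h in control VSMC, and at 19.1 to 25.9 in cholesterol-treated VSMC. Every later library was above each 0 h library, and the log2 difference was 0.89 ± 0.07 at 24 h and 1.06 ± 0.08 at 48 h in control VSMC (limma adjusted p = 2.8e-05 and 5e-06). Cxcl1, a neutrophil chemokine and NF-κB target, was listed at 0, 0 and 0.148 RPKM at 0 h and at 1.48, 2.02 and 1.67 in control VSMC at 24 h. Zc3h12a, an RNase that limits such transcripts, rose by a log2 difference of 0.79 ± 0.08 (limma adjusted p = 0.00021).

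Fst encodes follistatin, an inhibitor of activins, and had 2 regions, the closest at 43886 bp. It was at 5.82, 6.50 and 6.90 RPKM at 0 h, 11.3, 13.1 and 12.3 at 24 h and 16.4 and 16.6 at 48 h in control VSMC (log2 differences 0.84 ± 0.07 and 1.24 ± 0.08, limma adjusted p = 3.4e-05 and 1.5e-06). In cholesterol-treated VSMC it was at 7.43, 7.65 and 7.78 at 24 h, with 9.57, 9.09 and 10.4 at 48 h. Prelp, a proteoglycan of the matrix, had 1 region and 6 found in all lists. It was at 10.8, 11.1 and 11.2 RPKM at 0 h, 19.4, 21.5 and 21.9 at 24 h and 32.9 and 34.6 at 48 h in control VSMC (log2 differences 0.86 ± 0.10 and 1.53 ± 0.11, limma adjusted p = 0.00029 and 5e-06). Podn, a small proteoglycan with 3 regions and none found in all lists, was at 1.40, 1.52 and 1.63 RPKM at 0 h and 3.97 and 4.74 in control VSMC at 48 h (log2 difference 1.09 ± 0.09, limma adjusted p = 1.4e-05). Camk2n1, an inhibitor of a calmodulin kinase, rose by 0.75 ± 0.09 at 24 h and had 2 regions, the stronger with 41.7 normalized tags and a score of 11 (limma adjusted p = 0.0005). Arc, an immediate early gene, rose by 0.75 ± 0.14 (limma adjusted p = 0.0054).

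At 48 h in control VSMC the 8 largest rises were of Prelp, Cxcl1, Fst, Podn, Nfkbia, Dclk1, Camk2n1 and 1500015O10Rik. Dclk1, a kinase of the microtubule cytoskeleton with 6 regions, was at 8.78, 8.72 and 8.86 RPKM at 0 h and 17.6 and 20.6 at 48 h (log2 difference 1.03 ± 0.07, limma adjusted p = 5e-06). 1500015O10Rik, with 4 regions, was at 3.92 to 5.12 RPKM at 0 h and 9.83 and 8.66 at 48 h (log2 difference 0.93 ± 0.10, limma adjusted p = 7.6e-05). The rule took as many rises as falls, so their numbers say nothing of direction.

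**Figure D5:**
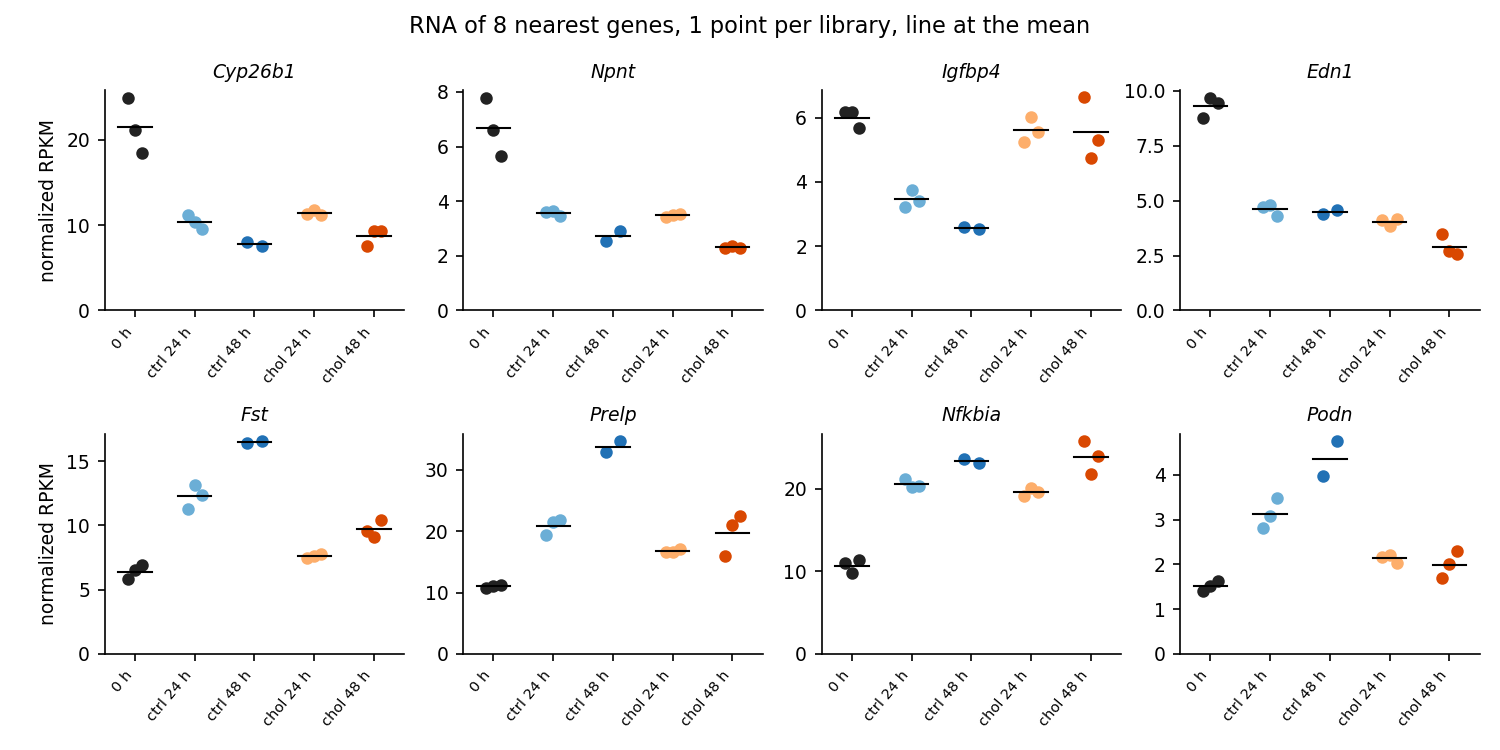
Normalized RPKM of 8 nearest genes in each RNA library, with a line at the mean of each group of 3 libraries (2 in control VSMC at 48 h) and axes that start at 0. In the upper row Cyp26b1, Npnt, Igfbp4 and Edn1 were lower in every control library at 24 and 48 h than at 0 h, and in the lower row Fst, Prelp, Nfkbia and Podn were higher.

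Among lists of genes of VSMC biology, growth factors and their receptors were most often near these regions, with 21 of 27 genes and 68 regions. Over all named genes 7740 of 24453 were nearest genes, and 37.6% of those tested. The same list had 69 regions found in all lists. Of the 19 tested, 0 were lower and 2 higher in control VSMC at 24 h by limma, with 3.81% and 4.45% of all genes. At an unadjusted p under 0.05 the numbers were 6 and 6. The share of all genes at that threshold was not computed. These and the later counts at an unadjusted p therefore have no background to be set against. At 48 h 3 were lower and 2 higher, with 8.06% and 7.66% of all genes. Without control 0 h replicate 3, 5 were lower at 24 h, with 6 in the whole list and 11.8% of all genes. Pdgfc, a platelet-derived growth factor, had 10 regions and was at 0.478, 0.420 and 0.438 RPKM at 0 h, against 0.333, 0.364 and 0.387 in cholesterol-treated VSMC at 48 h (log2 difference −0.09 ± 0.02, limma adjusted p = 0.01). Tgfbr2, a TGF-β receptor, had 6 regions and was at 1.95, 1.76 and 1.69 RPKM at 0 h and 2.48 and 2.65 in control VSMC at 48 h (log2 difference 0.35 ± 0.07, limma adjusted p = 0.004).

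Extracellular matrix genes were nearest genes in 18 of 30 cases, with 53 regions. Of these 18, 3 were lower and 1 higher in control VSMC at 24 h, with 3.81% and 4.45% of all genes. The list had 78 regions found in all lists. In cholesterol-treated VSMC at 24 h 10 of the 18 were lower and 0 higher by limma (13 and 0 at an unadjusted p under 0.05), with 16 of 29 lower in the whole list and 10.9% of all genes. The number of nearest genes lower was 4 without control 0 h replicate 1 or 2 and 12 without replicate 3. Shares of all genes were then 6.72%, 6.41% and 16.7%. In control VSMC at 24 h, 8 were lower without replicate 3, with 18 in the whole list and 11.8% of all genes. Without replicate 1 or 2, 1 was lower there, with 2.25% and 1.86% of all genes. Thbs2, an inhibitor of angiogenesis, had 6 regions and was at 3.23, 3.15 and 3.46 RPKM at 0 h, 5.32, 6.20 and 5.88 in control VSMC at 24 h and 1.92, 2.11 and 2.14 in cholesterol-treated VSMC at 48 h. The log2 difference was 0.67 ± 0.05 in the first and −0.49 ± 0.05 in the second (limma adjusted p = 3.4e-05 and 3.5e-05). Tnc, with 7 regions, was at 14.3, 11.3 and 10.1 RPKM at 0 h, and its later libraries lay at 9.40 to 13.5.

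Actin cytoskeleton and focal adhesion genes were nearest genes in 15 of 26 cases, with 48 regions, and by limma 0 of the 15 were lower in control VSMC at 24 or 48 h (5 and 2 at an unadjusted p under 0.05). Without control 0 h replicate 3, 8 were lower at 24 h, with 16 in the whole list and 11.8% of all genes. The list had 101 regions found in all lists. In cholesterol-treated VSMC at 24 h 7 of the 15 were lower, with 12 of 26 in the whole list and 10.9% of all genes. These 7 became 4, 5 and 10 without control 0 h replicates 1, 2 and 3, with 6.72%, 6.41% and 16.7% of all genes. The integrin gene Itga1, with 7 regions and none found in all lists, was at 1.19, 1.29 and 1.30 RPKM at 0 h and 0.809, 0.851 and 0.832 in cholesterol-treated VSMC at 48 h (log2 difference −0.30 ± 0.03, limma adjusted p = 2e-05). Contractile genes were nearest genes in 11 of 25 cases, with 21 regions and 70 found in all lists. In cholesterol-treated VSMC at 24 h 9 of the 10 tested were lower, or 5 without control 0 h replicate 1 or 2, with 16 of 22 in the whole list and 10.9% of all genes. Without replicate 1 or 2, 11 of the whole list were lower, with 6.72% and 6.41% of all genes. By limma 0 were lower in control VSMC at 24 h (4 at an unadjusted p under 0.05), with 3.81% of all genes. Without control 0 h replicate 3, 5 were lower, with 10 in the whole list and 11.8% of all genes. The myosin kinase gene Mylk, with 2 regions, was at 0.821, 0.747 and 0.746 RPKM at 0 h and 0.543, 0.551 and 0.529 in cholesterol-treated VSMC at 24 h (log2 difference −0.20 ± 0.03, limma adjusted p = 0.00084).

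Kinetochore and mitosis genes were nearest genes in 8 of 28 cases, with 18 regions, and the whole list had 3 regions found in all lists. Of these 8, 5 were lower in control VSMC at 24 h, with 3.81% of all genes. The 5 became 3 and 2 without control 0 h replicates 1 and 2, with 2.25% and 1.86% of all genes. By limma 0 were lower at 48 h, also at an unadjusted p under 0.05. In cholesterol-treated VSMC 5 were lower at 24 h, or 2 without control 0 h replicate 2, and 8 at 48 h. The shares of all genes there were 10.9% and 17.5%, or 6.41% at 24 h without that replicate. In the whole list, 20 of 27 tested genes were lower in control VSMC at 24 h but 5 at 48 h, and 18 and 27 in cholesterol-treated VSMC at 24 and 48 h. Nuf2, a kinetochore protein, had 8 regions, the closest at 46168 bp. It was at 1.10, 0.879 and 0.988 RPKM at 0 h and 0.542, 0.392 and 0.494 in cholesterol-treated VSMC at 48 h (log2 difference −0.43 ± 0.05, limma adjusted p = 2.4e-05). Prc1, which bundles the microtubules of the spindle midzone, had 1 region and was at 4.65, 4.42 and 4.55 RPKM at 0 h and 3.60, 3.03 and 3.22 in control VSMC at 24 h (log2 difference −0.37 ± 0.05, limma adjusted p = 0.001). DNA replication genes were nearest genes in 5 of 23 cases, with 7 regions, and by limma 0 of the 5 were called in control VSMC at 24 or 48 h (1 lower at 24 h and 2 higher at 48 h at an unadjusted p under 0.05). All 5 were lower in cholesterol-treated VSMC at 48 h, with 21 of 23 in the whole list and 17.5% of all genes.

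Targets of TEAD and YAP were nearest genes in 10 of 17 cases, with 34 regions and 55 found in all lists. In control VSMC at 24 h 2 of the 10 were lower, with 3 of 15 in the whole list and 3.81% of all genes. The 2 became 0 and 1 without control 0 h replicates 1 and 2, with 2.25% and 1.86% of all genes. Crim1, with 8 regions, was at 4.61, 3.74 and 3.15 RPKM at 0 h and 2.29, 2.70 and 2.82 in cholesterol-treated VSMC at 48 h (log2 difference −0.42 ± 0.09, limma adjusted p = 0.0035). Serum response and immediate early genes were nearest genes in 13 of 30 cases, with 33 regions. Of the 12 tested, 1 was lower and 0 higher in control VSMC at 24 h by limma, with 3.81% and 4.45% of all genes. At an unadjusted p under 0.05 the numbers were 1 and 5, again with no share of all genes. The AP-1 family had 6 nearest genes of 12, and 3 were higher in cholesterol-treated VSMC at 24 h, or 2 without control 0 h replicate 2, with 5 of 10 in the whole list and 9.13% of all genes. Without that replicate 3 of the whole list were higher, with 5.78% of all genes. Jun, with 4 regions, was at 12.7, 10.6 and 12.6 RPKM at 0 h and 22.5, 21.2 and 17.3 in cholesterol-treated VSMC at 48 h (log2 difference 0.72 ± 0.10, limma adjusted p = 0.00022). In the list of FOXO and quiescence genes 13 of 20 were nearest genes, among them Klf4, with 8 regions and 17 found in all lists. Klf4 was at 18.7, 20.1 and 21.3 RPKM at 0 h and at 26.6, 26.4 and 26.1 in control VSMC at 24 h (log2 difference 0.38 ± 0.08, limma adjusted p = 0.011). Cholesterol synthesis and uptake genes were nearest genes in 9 of 24 cases, with 13 regions, and all 9 were lower in cholesterol-treated VSMC at 24 h, with 24 of 24 in the whole list and 10.9% of all genes.

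Contractile genes summed to 283.4 to 580.8 RPKM over all libraries and endothelial markers to 0.402 to 1.58, with 0.815 to 0.972 at 0 h. Fibroblast markers summed to 1.13 to 1.27 RPKM at 0 h and were above that in every later library, at 1.46 to 2.33, with 2.04 and 2.33 in control VSMC at 48 h. Macrophage markers summed to 3.45 to 5.29 RPKM at 0 h, to 6.44 and 6.62 in control VSMC at 48 h and to 8.61 to 9.30 in cholesterol-treated VSMC at 48 h, with 3 of 10 listed at 0 in all libraries. Regions only at 0 h also lay near markers of other cells. Of 8 endothelial markers tested, 1 was lower and 2 higher in control VSMC at 24 h, and 3 were lower and 2 higher at 48 h. Among the 5 nearest genes these were 1 lower and 1 higher, then 2 lower and 1 higher. Of all genes 3.81% were lower and 4.45% higher at 24 h, with 8.06% and 7.66% at 48 h. Emcn, an endothelial sialomucin with 6 regions, was at 0.176, 0.151 and 0.118 RPKM at 0 h and 0.0677, 0.0706 and 0.0397 in control VSMC at 24 h (log2 difference −0.12 ± 0.02, limma adjusted p = 0.0015). Cdh5, the endothelial cadherin with 5 regions, was at 0.227, 0.134 and 0.123 RPKM at 0 h and 0.0365, 0.0649 and 0.0602 in cholesterol-treated VSMC at 48 h (log2 difference −0.14 ± 0.03, limma adjusted p = 0.0073). Vwf, the von Willebrand factor, had 4 regions and was at 0.0177, 0.0162 and 0.0271 RPKM at 0 h and 0.0426, 0.0451 and 0.0368 in control VSMC at 24 h (log2 difference 0.03 ± 0.01, limma adjusted p = 0.035), a call lost without control 0 h replicate 1 or 2, any 24 h control library or any 24 h cholesterol library (0.027 to 0.033). All of these were at low levels. Of the 10 macrophage markers 4 were tested, and by limma 0 were called in control VSMC at 24 or 48 h. In cholesterol-treated VSMC 1 was higher at 24 h and 2 at 48 h, with 9.13% and 16.3% of all genes. Among the 2 tested that were nearest genes, 1 was higher at each of these times. Cd14 and Csf1r were nearest genes, as were Fcgr1 and Ptprc, which were listed at 0 or at 0.0071 RPKM or less. Of the 8 fibroblast markers 4 were tested and 0 were lower in any later group. In control VSMC 2 were higher at 24 h and 2 at 48 h, with 4.45% and 7.66% of all genes. The 2 at 24 h became 0 without control 0 h replicate 1 or 2, with 2.57% and 2.77% of all genes. In cholesterol-treated VSMC 3 were higher at 24 h and 2 at 48 h, with 9.13% and 16.3% of all genes. The part of other cells in these values was not tested.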

How the data were processed

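H3K27ac ChIP-seq (5 libraries, 5 inputs) and polyA RNA-seq (14 libraries) were analysed from the deposited tables. The authors mapped ChIP reads to mm10 with Bowtie2 and called regions per library with HOMER findPeaks (histone style, fold of at least 4 and Poisson p of 1e-04 over the input). The deposited region lists give a tag signal scaled to 10000000 tags, unscaled input tags, a score, a fold ratio over input and a p-value. RNA was mapped with STAR, and the authors deposited RPKM values over RefSeq gene bodies from HOMER. Tool versions are not given in the sources used here.

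Lists were compared by overlaps of 1 bp. Sequence and RefSeq features were read from GRCm38.p6. RPKM was scaled by the median of ratios (factors 0.904 to 1.057), and limma 3.58.1 in R 4.3.3 was fitted to log2(RPKM + 1) of the 12648 genes with over 70 estimated reads in at least 1 library, with 1 mean per group, a trend and Benjamini-Hochberg adjustment (call at an adjusted p under 0.05). The fit was tested on simulated data. Each library listed 14450 to 16053 genes above 0. Regions have 1 library per condition and no test.

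Named genes are the nearest genes of the 10 regions with the most tags, the 10 genes with the most regions, the 8 largest falls and rises in control VSMC at 24 and at 48 h among called genes within 100 kb with a mean RPKM of at least 1, and up to 4 genes of each of 14 lists (279 genes). Pitx3 and Ppargc1a were named after their values were seen. Some genes that the rule names are not reported here. The regions, lists and rules were chosen with earlier results of these data known. Alternatives were other overlaps, distances, start sites and fold limits, and for RNA another pseudocount, filter, scaling, weighting, transcript choice, replicate block and each library left out.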

Additional observations from a re-analysis of the deposited data

Results flagged for a closer look

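Among 83 named genes tested, 6 had values in opposite directions in the 2 treatments at the same time: each control library lay beyond the 0 h range on one side and each cholesterol-treated library beyond it on the other. Both treatments are set against the same 0 h libraries, and the difference between them was not tested. Thbs2, an inhibitor of angiogenesis, was above the 0 h range in control VSMC and below it in cholesterol-treated VSMC, and the log2 difference from 0 h in cholesterol-treated VSMC minus that in control VSMC was −0.81 at 24 h and −1.27 at 48 h. Rasl11b, a small GTPase gene, had the other order at 48 h, with 1.32 on the same scale. So did Fosl2, an AP-1 gene with 3 of the regions, with 0.71 at 48 h. Its RPKM was 10.6, 10.2 and 9.76 at 0 h, 8.13 and 8.78 in control VSMC and 11.9, 16.7 and 15.1 in cholesterol-treated VSMC. Ccne2, a cyclin of S phase entry, was at 1.46, 1.49 and 1.76 RPKM at 0 h, 1.88 and 1.78 in control VSMC at 48 h and 0.740, 0.478 and 0.678 in cholesterol-treated VSMC at 48 h, a value of −0.80 on the same scale. Nfia, a transcription factor, had −0.12 at 48 h, and 1500015O10Rik had −0.47 at 24 h. With 2 control libraries at 48 h, such patterns need few libraries to fall alike. The control differences of Fosl2, Ccne2 and Nfia did not pass the test (limma adjusted p = 0.13, 0.37 and 0.17).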

How the results depend on the processing

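Main values were 15414 regions with medians of 18.2 normalized tags, 1 input tag and a fold of 19.57. With overlaps under 50% of a region also counted, median normalized tags were 18.9 and median input tags 2. With no region of another list within 5000 bp, 8165 regions were left. At a fold of at least 6 the median fold was 28.37, and at a fold of at least 8 it was 35.22 with median input tags of 0.5. Chosen after seeing the data, a score of at least 8 left 2072 regions (median normalized tags 24.1, input tags 2, fold 16.63) and a score of at least 10 left 273 (29.3, 2 and 17.61).

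Numbers of nearest genes lower and higher, in this order in control VSMC at 24 and 48 h and in cholesterol-treated VSMC at 24 and 48 h, were 189 and 219, 420 and 395, 558 and 408, 949 and 712. They were 101 and 102, 208 and 233, 459 and 223, 517 and 457 with a mean RPKM of at least 1, 115 and 306, 380 and 323, 327 and 676, 794 and 752 with RPKM as deposited, 93 and 157, 158 and 133, 390 and 366, 524 and 337 with a fit of the compared groups alone, 359 and 272, 421 and 371, 739 and 454, 1141 and 711 with voom weights and 57 and 75, 228 and 188, 232 and 147, 588 and 444 with array weights, whose fit gave a convergence warning. With fewer genes counted, they were 106 and 116, 251 and 216, 290 and 220, 572 and 389 for regions with no other list within 5000 bp and 100 and 125, 222 and 224, 334 and 233, 525 and 419 for genes within 20 kb. Libraries with the same replicate number did not deviate together (correlations −0.28 to 0.13). With the replicate block the numbers were 141 and 188, 375 and 317, 473 and 358, 897 and 671. Leaving out 1 library at a time gave, in control VSMC, 81 to 503 lower and 115 to 362 higher at 24 h, and 233 to 594 and 197 to 496 at 48 h. In cholesterol-treated VSMC it gave 279 to 777 and 220 to 575 at 24 h, and 784 to 994 and 558 to 771 at 48 h. Of all genes in control VSMC at 24 h it gave 1.46% to 11.8% lower and 2.30% to 7.64% higher. Shares of all genes moved with the setting as well. In control VSMC at 24 h, 3.67% of nearest genes and 3.36% of all genes were lower with a mean RPKM of at least 1. They were 2.42% and 2.51% with RPKM as deposited, and 1.96% and 1.91% with the compared groups alone. With the replicate block they were 2.965% and 2.846%, with voom weights 7.55% and 7.09%, and with array weights 1.199% and 1.075%. In cholesterol-treated VSMC at 48 h, 20.0% of nearest genes and 17.5% of all genes were lower in the main fit. There they were 24.0% and 19.7% with voom weights, and 12.4% and 11.0% with array weights. At a mean RPKM of at least 1, 2754 nearest genes were tested. Of these 16.7% were lower in cholesterol-treated VSMC at 24 h, with 13.9% of all genes. The causes of these shifts were not tested. Of 155 called values of named genes, 64 lost the call under at least 1 other setting and 47 without 1 library, and no sign was reversed. The 0 h library had 3452000 distinct positions. The interval of 2.20 to 13.1 belongs to a count of 6, the caller's threshold for a window, and does not give the precision of a region.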

Other observations

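Regions over tRNA genes were looked at after the values were seen. Of the 15414 distal regions only at 0 h, 8 overlapped a RefSeq tRNA gene, among them those nearest Olfr1368 and Trim27 (129.7 and 85.4 normalized tags). Of the 10428 distal 0 h regions found in all lists, 28 did. In the lists of distal regions in only 1 later list, 2 regions did in control VSMC at 24 h and 0 in control VSMC at 48 h and in cholesterol-treated VSMC at 24 and 48 h.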
